A study of Mus musculus with 9 samples.

Results

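Blood vascular endothelial nuclei are the nuclei of the cells that line arteries, capillaries and veins. They were taken from single-nucleus RNA sequencing of epididymal fat of mice, a depot of the abdominal cavity. A nucleus was counted as a member when it had at least 1 UMI (unique molecular identifier, 1 captured RNA molecule) in 4 or more of the 12 endothelial genes Pecam1, Cdh5, Cyyr1, Flt1, Ptprb, Mecom, Emcn, Kdr, Vwf, Tek, Egfl7 and Jam2. It also had to show UMIs in at most 1 of the lymphatic genes Prox1, Mmrn1, Reln, Flt4 and Pkhd1l1, and in at most 1 of Pdgfra, Adgre1, Mctp1, Muc16 and Plin4, which mark other cells of the depot. This rule found 4368 members, or 5.72%, among the 76356 nuclei of 9 libraries that had 500 to 3000 detected genes and at most 40000 UMIs. Members were thus selected on the detection of these 22 genes, so the levels of these genes are a description and support nothing below.

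All animals were male C57BL/6J mice, and every library was 1 pool of nuclei from 5 mice. C, CC and CCC mice ate chow and were 18, 26 and 39 weeks old. A high-fat diet (HFD) was fed for 12 weeks to H, studied at an age of 18 weeks, and for 25 weeks to HH, studied at 31 weeks. The weight loss (WL) groups returned to chow for the last 8 weeks: HC had 12 weeks of HFD behind it and an age of 26 weeks, HHC 25 weeks of HFD and an age of 39 weeks. CCH mice went from chow to a first 4 weeks of HFD, while HCH mice had 12 weeks of HFD, then 8 weeks of chow, then 4 renewed weeks of HFD, and both were 30 weeks old. Per the study's methods, the controls of the HFD period ate a low-fat chow, and all mice of the weight loss period ate another chow, so C differs from CC and CCC in diet as well as in age. With 1 library per group, differences between 2 libraries have no replicate error and no test. Their 95% intervals cover counting error only.

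Endothelial cells of fat pass fatty acids from the blood to adipocytes: Gpihbp1 anchors lipoprotein lipase on the capillary wall, and Cd36 and the fatty acid binding proteins Fabp4 and Fabp5 take up and carry the fatty acids that the lipase releases. They also keep the barrier closed through claudin 5 and the receptor for sphingosine 1-phosphate, respond to VEGF, Notch and BMP signals, and display adhesion molecules that capture leukocytes, mainly in veins. Arterial, capillary and venous cells differ in which of these genes they use.

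The deposited counts totalled 22599619 UMIs in CCC to 66615262 in HHC per library. Members held 626134 UMIs in H to 2299225 in C, and the median member had 1588.5 UMIs in H to 3122 in CC. The labels name 2 sequencing sets: S075 holds C, H, HH, CCH and HCH, and S019 holds CC, CCC, HC and HHC. H with C, HH with C, HCH with CCH, HC with CC and HHC with CCC are therefore comparisons within a set, and HH with CC crosses sets. Called doublets were 1.05% (CC) to 11.6% (HH) of the members. Barcodes shared among members were few: 3 pairs of libraries shared 1 each.

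The label was checked against 25 endothelial genes that the rule did not use, among them Tie1, Erg, Cldn5, Esam and Sox17. Their summed level in members was 4705 CPM (UMIs scaled to a common total per library) in CC to 9547 CPM in H, and in all other nuclei of the same libraries 574 CPM in H to 1715 CPM in CC. The members' level was 2.74 times that of the other nuclei in CC and 16.6 times in H, the lowest and highest ratios. All 12 genes of the rule were found in 19 members, while 672 members had exactly 4 and 1393 nuclei with 3 of them fell just outside. The median member carried 5 of the 12 genes in CC, 6 in CCC, 8 in CCH and 7 in the other libraries. Members thus carried endothelial genes in every library, least clearly in CC and CCC.

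Clustering the members, with each gene scaled within its library, gave 11 clusters. Clusters 3 (346 nuclei) and 5 (429 nuclei) were arterial-like, with 11 and 9 of 14 arterial markers. Cluster 2 (991 nuclei) was capillary-like with 7 of 10 markers, and clusters 0 (618 nuclei) and 6 (480 nuclei) were venous-like with 6 and 4 of 10. The remaining 1504 members lay in 6 clusters with at least 3 markers of another cell class. The largest of these, cluster 1 with 790 nuclei, had 8 of 10 capillary markers, 8 of 15 adipocyte markers and mural genes (Notch3, Abcc9, Rgs5) among its leading genes. The other 5 carried progenitor (242 nuclei), macrophage (227), epithelial (125), adipocyte (67) and mesothelial (53) markers. The cluster of 125 nuclei also carried 4 angiogenic and 4 proliferation markers beside its 4 epithelial ones. At a finer resolution it parted mainly into 68 nuclei with epithelial markers and 55 with 12 proliferation and 6 angiogenic markers, whose endothelial identity genes stood at 1.25 times the level of the other members, and these nuclei lie outside the clusters called core below. Called doublets made up 24.0% of the progenitor, 31.7% of the macrophage, 28.4% of the adipocyte and 24.5% of the mesothelial cluster.

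The clusters with fewer than 3 markers of any other class held 2864 members, 65.6% of all, and are called core members below. They made up 79.1% of the members in C, 85.6% in H, 72.9% in HH, 79.3% in CCH and 70.2% in HCH, all of set S075. In set S019 they made up 35.2% in CC, 29.4% in CCC, 43.9% in HC and 52.0% in HHC. In this clustering every S019 library thus had a smaller core share than every S075 library. That order did not hold when genes were not scaled within each library. Clusters 12 and 14 of the unscaled clustering (257 and 477 nuclei) had 6 and 7 macrophage markers, past the limit of 3. They held 21.5% and 33.3% of the members in H, 20.2% each in HH, and 10.8% and 32.3% in HCH. Core members of the HFD libraries are thus not free of macrophage markers. Values from core members are given beside the main results that rest on CC, CCC, HC or HHC. Among core members, arterial-like, capillary-like and venous-like nuclei made up 26.0%, 32.1% and 41.9% in C, 28.1%, 38.0% and 34.0% in H, and 33.0%, 27.9% and 39.1% in HH. These class sizes are a make-up of the libraries and not a result, since leading genes of the clusters (Mgp and Cytl1 in cluster 5, Lrrc3b in cluster 3, Slco1a4 in cluster 6, Adarb2 in cluster 0) themselves differ between libraries.

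**Figure D1:**
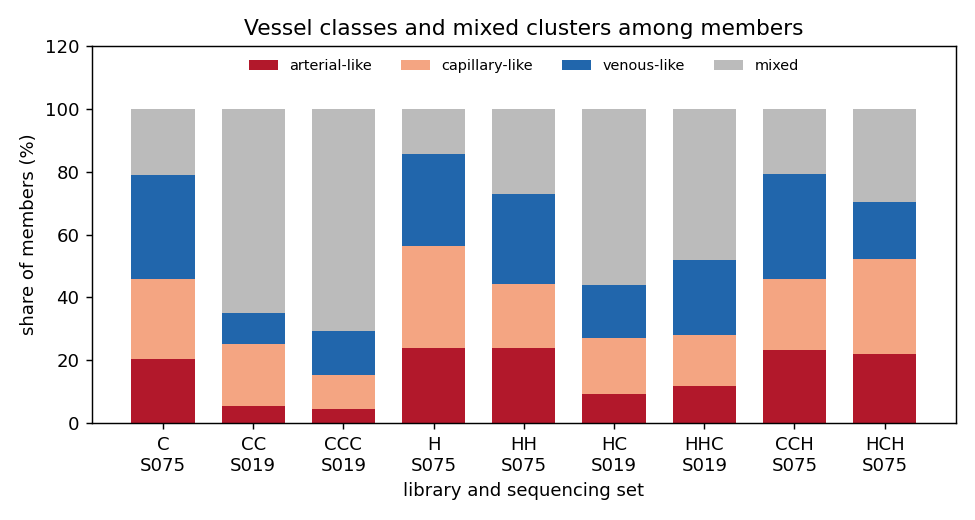
Share of members (%) in arterial-like, capillary-like, venous-like and mixed clusters, as stacked bars for each library with its sequencing set under its name. The mixed part is largest in CC, CCC, HC and HHC, the 4 libraries of set S019, where core members are 29.4% to 52.0% of all.

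Markers of other cells stood in the members at levels that differed between libraries. The 15 macrophage markers summed to 1086 CPM in members of C, 1269 in CC and 1565 in CCC, against 5409 in H, 5301 in HH, 6042 in HHC, 3384 in HCH, 2148 in HC and 1143 in CCH. In core members they were at much the same level, with 908 CPM in C, 5220 in H and 5455 in HH. In all other nuclei they summed to 3016 CPM in C and 11360 in H. The adipocyte markers ran the other way, with 13310 CPM in members of CC and 2893 in HH. Mural markers were highest in CCC (1440 CPM) and HC (1263 CPM) and lowest in H (87.8 CPM). For many genes below, the level in all other nuclei of the same library is therefore given, and the part of these other cells in the results was not tested.

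Members made up 9.31% of the nuclei in C (1084 of 11647, 95% interval 8.79 to 9.85) and 3.60% in H (354 of 9827, 3.24 to 3.99). HH had 3.68% (491 of 13330), CC 6.93% (287 of 4144) and CCC 6.95% (401 of 5771). After weight loss the share was 6.89% in HC (371 of 5385) and 3.23% in HHC (294 of 9102). CCH had 7.30% (532 of 7287) and HCH 5.62% (554 of 9863). The 2 HFD libraries and HHC thus had the lowest shares, and C had the highest.

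In percentage points, H lay below C by a difference of -5.70 (-6.36 to -5.05), HH below CC by -3.24 (-4.12 to -2.42), HHC below CCC by -3.72 (-4.49 to -2.97) and HCH below CCH by -1.68 (-2.45 to -0.930). HC and CC differed by -0.0362 points (-1.09 to 0.999), an interval that includes 0. With core members alone, the shares were 7.36% in C against 3.08% in H and 2.69% in HH, and 5.79% in CCH against 3.94% in HCH. Set S019 gave 2.44% in CC and 2.04% in CCC, with 3.03% and 1.68% in the WL libraries HC and HHC. The difference of H from C was then -4.27 points and that of HCH from CCH -1.85. That of HHC from CCC shrank to -0.364 points, and that of HH from CC turned to 0.248. Thinned to 1000 UMIs per nucleus, the shares were 8.70% in C, 3.13% in H, 3.32% in HH and 4.55% in CC. Fewer members and a larger number of other nuclei, such as macrophages, cannot be told apart from shares.

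**Figure D2:**
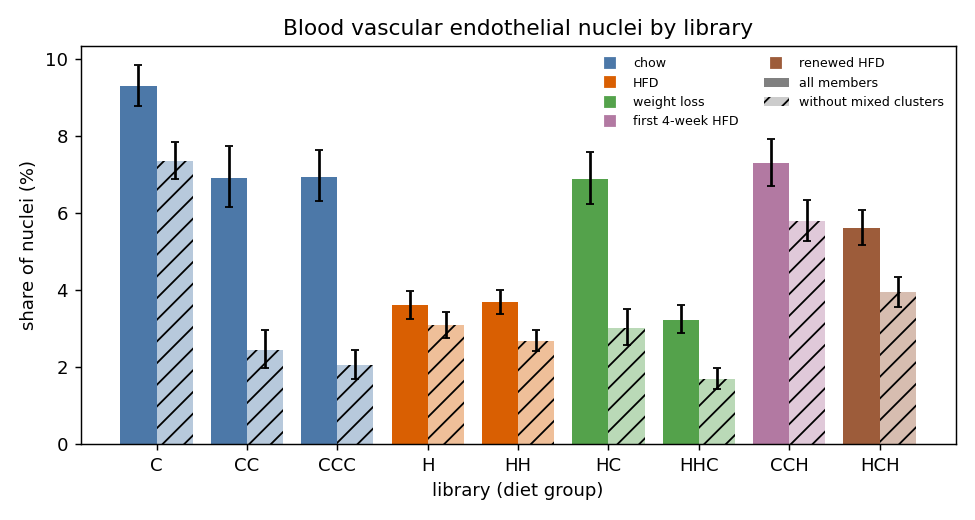
Share of nuclei (%) that were blood vascular endothelial members in each library, with 95% Clopper-Pearson intervals, coloured by diet state, with all members as filled bars and core members as hatched bars. H, HH and HHC are lowest for all members, and the 4 S019 libraries lose the largest part of their share when mixed clusters are left out, down to between 1.68% and 3.03%.

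Under HFD, Mgp, Clu, Cytl1, S1pr1 and Myct1 stood higher in members of H and HH than in C, CC and CCC, and so did macrophage and lysosome genes such as Itgax, Trem2 and Ctsd. At least 2-fold with 50 or more UMIs over both libraries, 828 of 7878 genes were higher and 509 lower in H than in C (10.5% and 6.46% of those tested). In HH against CC, 1053 of 6866 were higher and 715 lower (15.3% and 10.4%). Scaled by TMM, which shifted these log2 ratios by -0.14 and -0.17, the splits were 689 higher and 640 lower in H, and 838 higher and 865 lower in HH. Of 6579 genes tested in both comparisons, 419 were higher and 271 lower in both, and 58 of the higher ones also stood at least 2 times above the other nuclei of H and of HH. Only 1 lower gene stood so far above the other nuclei of its chow libraries, the retinoic acid hydroxylase Cyp26b1 (29.1 CPM in C from 67 UMIs, 3.19 CPM in H from 2 UMIs), and core members gave 1 other gene in its place, Ncald. For lower genes C and CC set this filter, and for higher genes H and HH, so both counts are a description. Within set S075, with the filter read in the higher library, 135 genes were higher and 28 lower in H than in C. In HH against C it was 132 and 45. Most genes at least 2-fold higher in H were so in the other nuclei too, 620 of 824 or 75.2%, where 14.4% of all tested genes were, and they made up 54.9% of the genes higher there. For lower genes it was 331 of 509 (65.0%, beside 11.7% of all, and 36.1% of those lower there).

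Mgp, matrix Gla protein, an inhibitor of BMP signals and of calcification, stood at 234 CPM in members of C, 93.4 in CC and 286 in CCC, against 1236 in H and 2163 in HH. The WL libraries HC and HHC had 62.8 and 252 CPM, and CCH and HCH had 476 and 846. The 2 HFD libraries lay above all 7 others, and the WL libraries lay within or below the chow range. The log2 ratio was 2.40 in H against C (2.24 to 2.57) and 3.21 in HH against C (3.07 to 3.35). In other nuclei Mgp stood at 36.5 CPM in C, 234 in H and 476 in HH, so it was higher there as well at a lower level. The gene lies on the minus strand at chr6:136872435-136875823 (mm10).

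S1pr1, the receptor through which sphingosine 1-phosphate tightens the endothelial barrier, stood at 348 CPM in H and 334 in HH, and at 148, 103 and 112 CPM in C, CC and CCC. CCH and HCH had 183 and 258 CPM, and HC and HHC had 90.3 and 176. Both HFD libraries again lay above all others, with log2 ratios to C of 1.23 (0.98 to 1.48) in H and 1.17 in HH. In other nuclei S1pr1 did not exceed 35.6 CPM in any library. Myct1, a membrane protein of endothelial cells, stood at 48.7, 60.5 and 77.3 CPM in C, CC and CCC and at 169 and 168 in H and HH, while HC and HHC had 35.3 and 70.7, and CCH and HCH had 116 and 137.

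Id1 and Id3, targets of BMP signals that hold back other transcription factors, behaved alike in H and HH. Id1 stood at 58.7, 55.2 and 113 CPM in the chow libraries C, CC and CCC and at 230.0 and 203 in H and HH, against 38.7 and 81.9 in HC and HHC and 58.5 and 145 in CCH and HCH. Its log2 ratio of H to C was 1.97 in members (1.62 to 2.32) and -0.78 in the other nuclei. Id3 stood at 64.8, 75.4 and 180.5 CPM in C, CC and CCC and at 265 in H and 225 in HH. Cldn5, the claudin of endothelial tight junctions, stood at 137, 114 and 164 CPM in the chow libraries and at 331 in H and 443 in HH, while HC and HHC had 53.3 and 150.2, and CCH and HCH had 238 and 317.

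**Figure D3:**
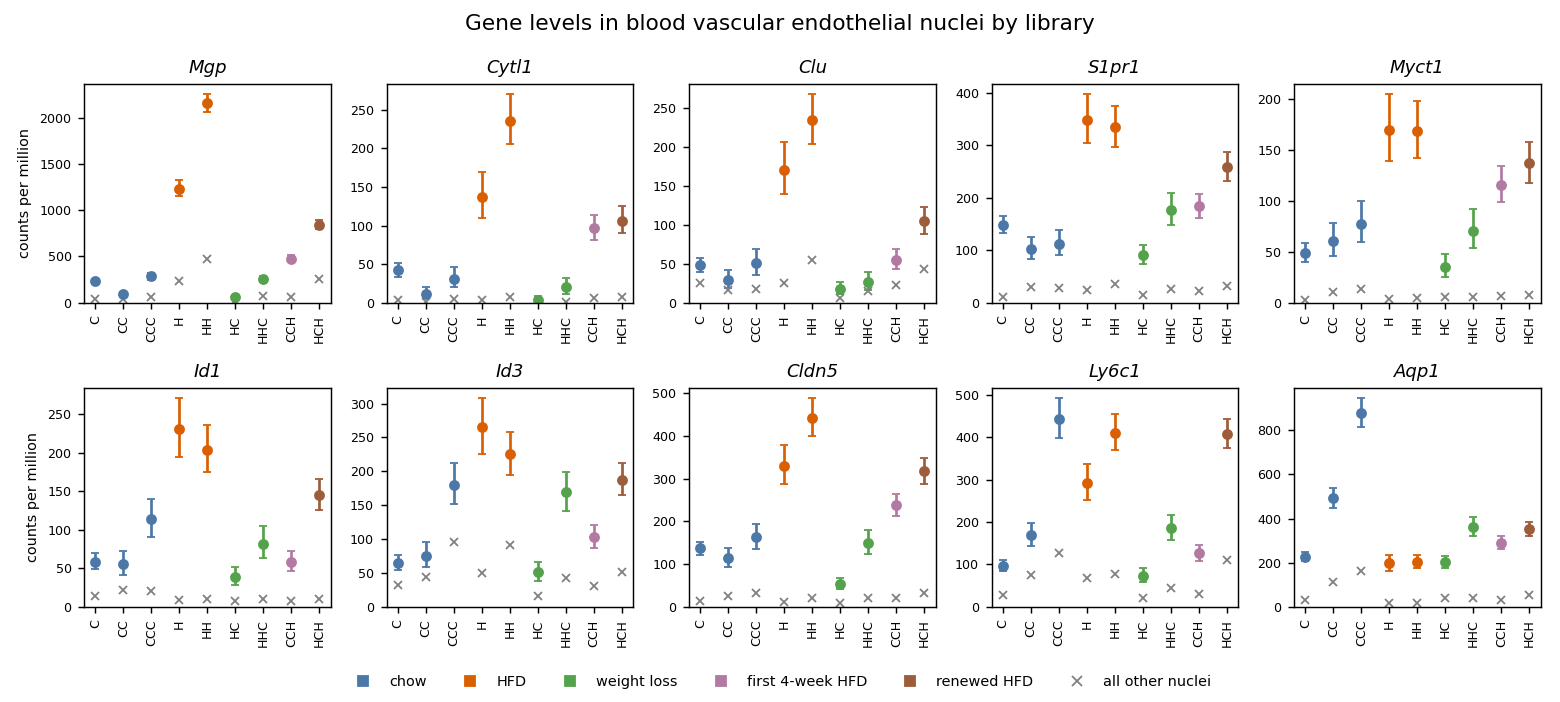
Level (CPM, linear axis from 0) of 10 genes in members of each library as points with 95% Poisson intervals, coloured by diet state, with the level in all other nuclei as a grey cross. Mgp, Cytl1, Clu, S1pr1, Myct1, Id1, Id3 and Cldn5 are highest in H and HH, while Ly6c1 and Aqp1 are lower in HC and HHC than in their chow libraries CC and CCC.

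A test over diet states took the 3 chow, 2 HFD and 2 WL libraries as replicates of a state, although they differ in age, weeks of HFD and sequencing set (edgeR quasi-likelihood test, Benjamini-Hochberg adjusted over 11237 genes). It called 343 genes higher under HFD than on chow (3.05% of those tested) and 187 lower (1.66%). Of the higher genes, 58 stood at least 2 times above the other nuclei in H and in HH, and 157 stood below the other nuclei. None of the 187 lower genes stood 2 times above them in the chow libraries, and 164 stood below. The libraries where a gene was high thus set this filter. Endothelial identity genes stood at 16.6 and 12.6 times the other nuclei in H and HH, but at 6.13, 2.74 and 3.32 times in C, CC and CCC. These counts are therefore a description and not a comparison of directions. The balance of directions among all calls turned in some alternatives: DESeq2 called 420 higher and 462 lower, the fit without C 726 and 966, and the fit without a filter on low counts 778 and 897. It stayed in others: the sequencing set as a term gave 438 and 107, core members 309 and 162, and the fit without CCC 210 and 68. The 10 genes of lowest p were Itgax, Ccl9, Cma1, Gm11476, C3ar1, Trem2, 1500004A13Rik, A430090L17Rik and Prr16 beside Adgre1, which the rule uses. Of these, Itgax, Ccl9, C3ar1 and Trem2 are genes of macrophages, Cma1 encodes a mast cell protease, and Trem2 stood at 300.3 CPM in members and 298 CPM in other nuclei of H.

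Of the 58 genes, 43 were noncoding and 15 protein-coding: Mgp, Clu, Cytl1, Kit, Myct1, S1pr1, Gimap1, Clec9a, Rundc3b, Ddi1, Nxpe2, Prl2c3, 1700066B19Rik, 3110021N24Rik and A730049H05Rik. Mgp rose by 2.98 on the log2 scale (SE 0.58, adjusted p = 0.0259), Clu, the secreted chaperone clusterin, by 2.17 (SE 0.29, adjusted p = 0.0106) and Cytl1, a secreted cytokine-like protein, by 2.60 (SE 0.54, adjusted p = 0.0326). Mgp and Cytl1 are leading genes of arterial-like cluster 5, which held 10.1% of the members in C, 2.79% in CC and 3.24% in CCC, against 11.6% in H and 15.3% in HH, and the part of this make-up in both calls was not tested. Kit, the receptor of stem cell factor, rose by 1.87 (adjusted p = 0.0156), S1pr1 by 1.39 (adjusted p = 0.0351) and Myct1 by 1.36 (adjusted p = 0.0372). Id1 (1.45, adjusted p = 0.0533), Cldn5 (1.40, adjusted p = 0.0626) and Id3 (1.14, adjusted p = 0.236) did not pass. With core members 12 of the 15 were called, and with the sequencing set as a term 7. The calls rest on few libraries: of the 15, leaving out HH left 0 called, leaving out H left 2, and leaving out CC, CCC or both left 5 each time. Over all genes, 530 calls became 0 without HH (1462 genes at an unadjusted p under 0.05), 38 without H, 103 without CC, 278 without CCC, 336 without CC and CCC, and 1692 without C. Kit stood at 119 CPM in all members of HH and at 28.4 CPM in core members.

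Among endothelial identity genes, 0 of 25 passed the edgeR test in either direction, with a median log2 difference of 0.48 beside -0.02 over all genes. In H against C 6 of 25 were at least 2-fold higher (Cldn5, Ecscr, Sox18, Sox7, Clec14a and Tspan18) and 0 lower, with a median of 0.57 beside -0.01 over all genes. In HH against C it was also 6 higher and 0 lower, and against CC 11 (median 0.90), which in core members became 8 of 23 (median 0.38). Counts over lists of genes under HFD stand beside the shares over all genes given above, 10.5% higher and 6.46% lower for H with C, and 15.3% and 10.4% for HH with CC. For HH with C, 1203 of 8391 genes were at least 2-fold higher and 412 lower. Core members gave 609 higher and 288 lower of 3841 genes for HH with CC, and 735 and 362 of 6603 for HH with C. Clec14a, a lectin of angiogenic endothelium, stood at 97.4 and 118 CPM in H and HH and at 44.4, 15.9 and 29.7 CPM in C, CC and CCC, but also at 86.9 in HHC. Sox17, an arterial transcription factor, stood at 127 CPM in C, 190.1 in H and 217 in HH, and at 35 in CC and 50.3 in CCC. The higher share of core members in H and HH than in CC and CCC moves with these values.

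Of the 10 capillary markers, 4 were at least 2-fold higher in H than in C (Gpihbp1, Cd300lg, Btnl9 and Rbp7) and 0 lower, but against CC, HH had 2 higher (Meox2, Rbp7) and 4 lower (Rgcc, Timp4, Tcf15, Aqp1). In core members HH had 0 higher and 5 lower of 9 against CC, with a median of -1.09 in place of -0.32. Within the set, HH against C had 3 of 10 higher and 0 lower (median 0.68), and in core members 0 of 9 either way (median 0.37). None passed the edgeR test. Cd300lg, a capillary glycoprotein, stood at 66.5 CPM in C, 211 in H and 151 in HH, but at 201 in CC and 217 in CCC. Which chow library served as the control thus set the direction for this gene. Arterial markers were 2-fold higher in 1 of 11 in H against C and in 9 of 11 in HH against CC (median 2.63), a comparison across sets. Within the set, HH against C gave 2 of 11 with a median of 0.10, and 0 of 14 passed the edgeR test. Venous markers were higher in 1 of 7 (Lrg1, a glycoprotein of inflamed venules) in H against C and also in 1 of 7 in HH against C, and 0 of 9 passed. Across sets, HH against CC had 4 of 8 higher and 1 lower (median 1.02), and 4 of 6 higher in core members (median 1.35).

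Of the fatty acid handling genes, 5 of 18 were at least 2-fold higher in H than in C (Fabp4, Fabp5, Gpihbp1, Angptl4, Aqp7) and 2 lower (Slc27a1, Acsl1), while HH against CC had 1 higher and 5 lower. Gpihbp1 stood at 74.4 CPM in C, 248 in H and 224 in HH, and at 195 in CC and 364 in CCC. It was 1.73 higher on the log2 scale in H than in C (1.41 to 2.06) and 0.20 in HH than in CC. Fabp4 stood at 1235 CPM in C, 2522 in H and 3604 in HH, but at 6062 in CC and 8364 in CCC, where adipocyte markers were higher in members as well. Cd36, the fatty acid translocase, stood at 2612, 2837 and 2212 CPM in C, CC and CCC, at 4489 in H and at 3164 in HH, with 1472, 3567 and 2368 CPM in other nuclei of C, H and HH. By edgeR only 2 of 20 were called, both lower under HFD: Slc27a1, a fatty acid transporter, fell by 2.05 (adjusted p = 0.0230) and Acsl1, which activates fatty acids, fell by 2.62 (adjusted p = 0.0240). Both were higher in other nuclei than in members in every library, with Acsl1 at 1146 CPM in other nuclei and 279.7 CPM in members of C.

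Of the insulin signalling genes, 1 of 13 was at least 2-fold higher in H than in C (Akt1) and 4 lower (Irs1, Pik3r1, Foxo3, Grb14), with a median of -0.59. Against CC, HH had 3 higher and 3 lower of 12 with a median of -0.03. Insr, the insulin receptor, stood at 883 CPM in C, 501 in H and 405 in HH, while CC and CCC had 373 and 383. Other nuclei had 460.4 CPM in C, 196 in H and 202 in HH. Its log2 ratio was -0.82 in H to C (-0.99 to -0.64) and 0.12 in HH to CC (-0.09 to 0.34), an interval that includes 0. C therefore stood apart from the other chow libraries, and edgeR gave -0.36 (adjusted p = 0.712). Irs1, the main substrate of the receptor, stood at 83.9, 141 and 106 CPM in C, CC and CCC and at 16 in H and 37.5 in HH. It fell by 2.10 (adjusted p = 0.0445), and was higher in other nuclei (398 CPM in C, 60.2 in H).

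Of the VEGF and angiopoietin genes, 0 of 7 were at least 2-fold higher and 2 lower in H than in C, Vegfa and Angpt1, while HH against CC had 2 of 8 higher and 1 lower (median 0.44). The ligand Vegfa stood at 114, 168 and 146 CPM in C, CC and CCC, at 17.6 in H and at 28.4 in HH, and it fell by 2.70 (adjusted p = 0.00919). It was also lower in the other nuclei, from 334 CPM in C to 40.8 in H. Of the Notch genes, 1 of 11 was at least 2-fold higher (Hes1, a Notch target) and 1 lower (Rbpj, its transcription factor) in H against C, and 0 of 13 were called. Of the TGF-beta and BMP genes 2 of 23 were higher (Id1, Id3) and 2 lower (Bmpr1a, Smad3) in H against C, with 6 and 3 of 21 in HH against CC, and by edgeR the receptor Bmpr1a alone was called, where it fell by 2.18 (adjusted p = 0.0209).

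Of the basement membrane and matrix genes, 7 of 20 were at least 2-fold higher in H than in C (Col4a1, Col4a2, Col15a1, Col18a1, Sparc, Fn1, Mgp) and 0 lower, with a median of 0.72. Against CC, HH had 3 higher (Col18a1, Fn1, Mgp) and 4 lower, all laminins (Lama4, Lama5, Lamb1, Lamc1), and in core members 3 higher and 2 lower of 15. Within the set, HH against C had 6 of 20 higher and 1 lower (median 0.67). Col4a1, a chain of basement membrane collagen, stood at 213 CPM in C, 450.4 in H and 404 in HH, but at 396 in CC and 458 in CCC, and other nuclei of C, H and HH had 235, 248 and 224 CPM. Only Mgp and Fn1 were called, and fibronectin (Fn1) rose by 1.53 (adjusted p = 0.0472). Fn1 stood at 366 CPM in members and 398 CPM in other nuclei of H.

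Of the adhesion and chemokine genes, 2 of 13 were at least 2-fold higher in H than in C (Ccl2, Cxcl12) and 2 lower (Icam1, Nfkbia), while HH against CC had 4 of 11 higher and 0 lower. Ccl2, which attracts monocytes, rose by 2.98 (adjusted p = 0.0429), and stood at 55.9 CPM in members and 69.9 CPM in other nuclei of H. Icam1, an adhesion molecule for leukocytes, stood at 157 CPM in C, 67.1 in H and 82.9 in HH, but at 21.2 in CC and 45.1 in CCC, so that H lay below C and HH above CC. Of the antigen presentation and interferon genes, 7 of 15 were higher in H than in C and 0 lower, and 0 of 18 were called. H2-D1, a class I chain, stood at 192, 287 and 519.5 CPM in C, CC and CCC, at 842 in H and at 908 in HH, with 105, 483 and 590.0 CPM in other nuclei of C, H and HH.

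Lysosome genes had more calls than any other functional list: 14 of 19 were at least 2-fold higher in H than in C (median 2.25) and 16 of 19 in HH than in CC (median 1.62), with 0 lower. By edgeR 8 of 20 were higher and 0 lower (Ctsa, Ctsb, Ctsd, Ctss, Ctsz, Lamp1, Lipa, Atp6v0d2). Ctsd, the protease cathepsin D, stood at 70.5 CPM in C, 99.8 in CC and 175 in CCC, then at 1413 in H and 1129 in HH, and it rose by 3.40 (adjusted p = 0.0156). The other nuclei held as much, with 55.1 CPM in C, 1274 in H and 981 in HH. Over the whole list, the level in members was 0.668 to 1.20 times that in the other nuclei. Of the macrophage markers 6 of 15 were called higher (Lyz2, Gpnmb, Mmp12, Trem2, Tyrobp, Cd68), of the adipocyte markers 7 of 15 lower, and of the progenitor markers 3 of 12 higher (Col1a1, Col3a1, Lum).

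Of the hypoxia genes 0 of 15 were called higher and 2 lower, Vegfa and Bnip3, a mitochondrial stress protein that fell by 2.27 (adjusted p = 0.0247). Of the senescence genes 1 of 8 was called, the stress cytokine Gdf15, which rose by 4.76 (adjusted p = 0.0148). Gdf15 stood at 30.3 CPM in H and 21.6 in HH from 19 UMIs each, at up to 1.29 CPM in the chow libraries from 1 UMI each, and at 69.8 CPM in other nuclei of H. None of 10 angiogenic, 9 shear stress and 5 proliferation genes was called in either direction.

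Some of the genes higher under HFD were transcripts that lie opposite a protein-coding gene. Of the 58 genes that were at least 2-fold higher in H and HH and at least 2 times above the other nuclei, 24 were long noncoding RNAs and 25 lay opposite a protein-coding gene (43.1%, where 20.2% of the genes tested did). The libraries H and HH, where these genes are high, also decided which genes stood above the other nuclei, so these counts are a description. Reads of a gene and its opposite partner cannot be told apart where the counting did not use strand, and the strand setting is not given in the sources used here. The 10 genes with the largest smaller ratio were A430090L17Rik (opposite Arl15), Gm43507 (Ldb2), 4930517O19Rik (Klf12), Sorbs2os (Sorbs2), Mecomos (Mecom), Gm15738 (Mrtfb), Clec9a, Gm49267 (Fbxl7), Gm26632 (Rbpms) and 3110021N24Rik (Zfyve9). Clec9a, a lectin receptor known from dendritic cells, was the only 1 of them without a partner and stood at 8.7 CPM in C, 65.5 in H and 64.7 in HH.

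Mecomos, opposite the endothelial transcription factor gene Mecom, lies at chr3:30012379-30054808 (mm10, plus strand). It stood at 10.4, 7.43 and 9.02 CPM in C, CC and CCC, at 81.5 and 71.6 in H and HH, at 6.02 and 23.6 in HC and HHC, and at 26.1 and 41.8 in CCH and HCH. Other nuclei had 0.317 to 1.10 CPM, but Mecom is a gene of the member rule, so this contrast is a description. Per 100 UMIs of Mecom, Mecomos had 0.201, 0.561 and 0.624 UMIs in C, CC and CCC, and 1.85 and 1.93 in H and HH. Mecomos rose by 2.95 (SE 0.45, adjusted p = 0.0149). A430090L17Rik (chr13:114124348-114151592, minus strand) stood at 11.3, 4.25 and 7.73 CPM in the chow libraries and at 105 in H and 114 in HH, and rose by 3.61 (adjusted p = 0.00875). Sorbs2os (chr8:45723325-45819297, minus strand) stood at 13.9, 2.12 and 23.2 CPM in the chow libraries and at 113 in H and 164 in HH, and rose by 3.34 (adjusted p = 0.0223). Gm15581, opposite Cav1, the gene of the caveolar coat, had 6.92 UMIs per 100 UMIs of Cav1 in C, 38.0 in H and 48.4 in HH. All of these transcripts, Gm15581 included, passed the rule of being higher in H and HH, so their levels there are a description.

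Over all 3295 noncoding transcripts opposite a protein-coding gene, their share of the members' UMIs was 2.23% in H and 2.62% in HH, against 1.19%, 1.23% and 1.41% in C, CC and CCC. CCH and HCH had 1.29% and 1.54%, and HC and HHC had 1.37% and 1.97%. HH, H and HHC were thus the highest, and HC lay within the chow range. Core members gave 1.15% in C, 2.24% in H and 2.55% in HH of the UMIs. The same 3 libraries were highest in the other nuclei, with 2.43% in H, 2.94% in HH and 2.36% in HHC beside 1.43% in C. The 2840 partner genes took 28.0%, 23.7% and 23.8% of the members' UMIs in the chow libraries C, CC and CCC, and 25.0% and 24.1% in H and HH, so both HFD libraries lay within the chow range. Of 151 such transcripts tested in H against C, 82 were at least 2-fold higher and 5 lower, with a median log2 ratio of 1.16, while their partners had a median of -0.13. The other nuclei gave a median of 1.37 over 1324 transcripts.

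**Figure D4:**
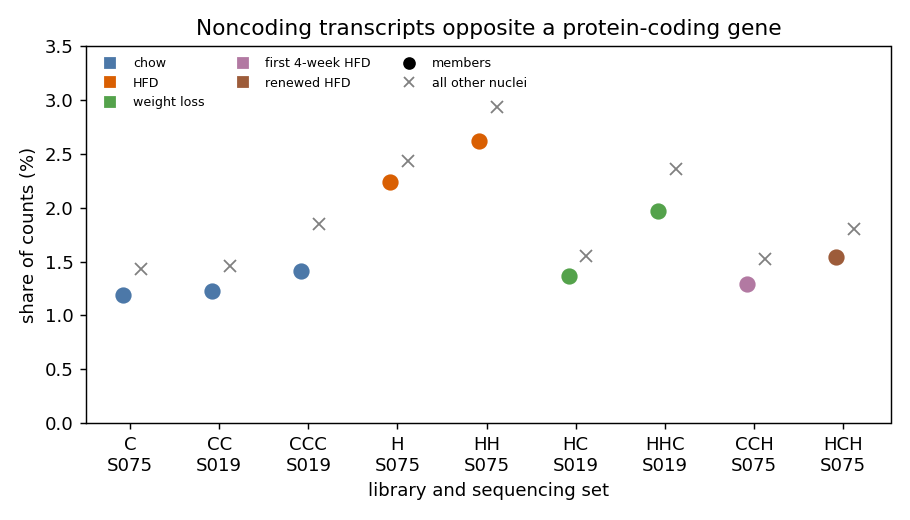
Share of counts (%) from noncoding transcripts that lie opposite a protein-coding gene, by library and sequencing set, in members (points coloured by diet state) and in all other nuclei (grey crosses). H, HH and HHC are highest in both populations, and members of C, CC, CCC, HC, CCH and HCH lie between 1.19% and 1.54%.

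After weight loss fewer genes than under HFD were 2-fold apart from chow. In HC against CC, 346 of 6949 genes were at least 2-fold higher (4.98%) and 415 lower (5.97%), and in HHC against CCC 273 of 6581 were higher (4.15%) and 340 lower (5.17%). By edgeR 5 genes were higher in WL than on chow (0.0445% of those tested) and 0 lower (0%), while 964 genes in all had an unadjusted p under 0.05 and DESeq2 called 160, with 80 in each direction. With the sequencing set as a term 36 were called higher and 92 lower, without C 28 and 94, with core members 36 and 3, and without CC and CCC 182 and 35. With WL and chow libraries paired by age and set (CC with HC, CCC with HHC), on 1 residual degree of freedom, 252 were called higher and 412 lower, the 5 among them. The 5 were Atp6v0d2, Mamdc2, Itgax, Lgals3 and Cd84, all of which stood lower in members than in other nuclei. Itgax, an integrin of macrophages in obese fat, rose by 5.32 (adjusted p = 0.0422) and stood at 25.8 CPM in members of HC and 107 in HHC, against 1.74 in C, 1.06 in CC and 1.29 in CCC. Without CC, H, HH or HHC 0 genes were called, with 660, 918, 885 and 712 genes at an unadjusted p under 0.05. Without CCC 1 was called, without HC 37 and without C 122.

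Most genes at least 2-fold higher under HFD were not at least 2-fold higher than chow in the WL libraries. Of 562 genes higher in H than in C and tested in both comparisons, 55 (9.79%, beside 4.27% of all tested genes) were also higher in HC than in CC, and they were 19.6% of the 280 genes higher there. Of 848 genes higher in HH than in CC, 180 (21.2%, beside 3.78%) were also higher in HHC than in CCC, and they were 76.6% of 235. HH with CC crosses sequencing sets and HHC with CCC does not, and the part of the set in these counts was not tested. For lower genes the counts were 148 of 446 (33.2%, beside 5.41%) and 230 of 636 (36.2%, beside 4.72%). Core members gave 9 of 170 (5.29%, beside 5.82%) and 72 of 357 (20.2%, beside 3.99%) for higher genes, and 57 of 196 (29.1%, beside 4.96%) and 34 of 174 (19.5%, beside 2.33%) for lower ones. The first of these 4 shares lay at the background. Among genes at 2 times the level of the other nuclei the higher counts were 5 of 81 (6.17%) and 28 of 248 (11.3%), and in core members 0 of 33 (beside 5.82%) and 6 of 154 (3.90%, beside 3.99%). These genes passed that filter in H or HH, where they are high, so their counts are a description. Of the 33 HFD genes above that had no opposite partner, 25 could be tested in HHC against CCC, with 3 higher, 2 lower and a median log2 ratio of -0.12 beside 0.05 over all genes. Of the 25 with a partner, 16 could be tested, with 9 higher, 0 lower and a median of 1.45, against 0.14 for the same genes in other nuclei. With the rule applied to core members, 7 of 19 with a partner could be tested, with 3 higher, 0 lower and a median of 0.97. Of 24 without one, 17 could be tested, with 2 higher, 2 lower and a median of -0.40. The minimum of 50 UMIs counts both libraries, so a transcript low in CCC could be tested only if it was high in HHC. These counts are a description.

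Individual genes followed both courses. Clu stood at 17.2 CPM in HC and 26.1 in HHC, below CC (28.7) and CCC (50.3). Cytl1 stood at 3.44 CPM in HC and 19.9 in HHC beside 11.7 in CC and 30.9 in CCC. Rundc3b, which binds the small GTPase Rap2, stood at 34 CPM in CC, 47.7 in CCC, 158 in H and 257 in HH, and at 49 in HC but 143 in HHC, a log2 ratio to CCC of 1.58 (1.04 to 2.16). Gm43507, opposite Ldb2, stood at 5.31 and 7.73 CPM in CC and CCC, 97.4 and 158 in H and HH, and 23.2 and 69.5 in HC and HHC, and HHC exceeded CCC by 3.17 (1.96 to 4.67). Lysosome genes were at least 2-fold higher in 4 of 19 in HC and in 12 of 19 in HHC, and macrophage markers in 4 of 10 and 9 of 14. Ctsd stood at 302 CPM in members of HC and 1216 in HHC, against 325 and 1428 CPM in other nuclei.

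Genes lower after weight loss that stood above the other nuclei in CC and CCC included the capillary water channel Aqp1 and the glycolipid-anchored surface proteins Ly6c1 and Ly6a. Of 6200 genes tested in both WL comparisons, 83 were higher and 168 lower in both, and 12 and 5 of these stood 2 times above the other nuclei. The 5 lower ones were Aqp1, Ly6c1, Dazap2, Ly6a and Cavin1. For lower genes CC and CCC set this filter, and for higher genes HC and HHC, so both counts are a description. Among genes past it in a single comparison, 83 of 738 were higher and 46 lower in HC than in CC. In HHC against CCC it was 41 and 20 of 906. Aqp1 stood at 492 CPM in CC and 878 in CCC, and at 202 in HC and 361 in HHC, a log2 ratio of -1.28 in both (-1.51 to -1.05 and -1.48 to -1.08). In core members the ratios were -2.26 and -1.76, and in other nuclei -1.49 and -2.04. H, HH and C stood at 196, 204 and 227 CPM, and CC and CCC were the highest of all 9 libraries. Capillary-like nuclei were 55.4% of core members in CC, 40.5% in HC, 37.3% in CCC and 30.7% in HHC. Cluster 1, with capillary markers, held 28.2%, 31.8%, 61.8% and 29.6% of all members of these libraries in the same order. The part of this make-up in the lower levels was not tested. Ly6c1 stood at 169 CPM in CC, 443 in CCC, 73.1 in HC and 185 in HHC (log2 ratios -1.21 and -1.26), and at 96.6 in C. Cavin1, which shapes caveolae, stood at 639 and 601 CPM in CC and CCC, 254 in HC and 295 in HHC, and had ratios of -1.60 and -1.08 in other nuclei.

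The 5 highest of the 12 higher genes were Slco1a4, 9330175M20Rik, Lrrc3b, Clca3a1 and Mfsd4a. Slco1a4, an organic anion transporter, stood at 11.7 CPM in CC and 24.5 in CCC, and at 74 in HC and 74.5 in HHC, with log2 ratios of 2.66 and 1.60. Lrrc3b stood at 26.5 and 25.8 CPM in CC and CCC and at 83.4 and 68.3 in HC and HHC, but at 166 in C. Slco1a4 leads cluster 6, which held 15 members of CC, 35 of HC, 32 of CCC and 42 of HHC, and Lrrc3b leads cluster 3, which held 8 and 15, and 5 and 15. With core members alone the naming rule gave other genes, 3 higher (Thsd4, Wdr17, Dtd1) and 3 lower (Aqp1, Gpihbp1, Cavin1), so that Aqp1 and Cavin1 were named both ways. Of the antigen presentation genes, 6 of 12 were lower in HC than in CC (B2m, H2-K1, H2-D1, H2-Aa, H2-Ab1, H2-Eb1) and 0 of 13 differed by 2-fold in HHC from CCC. In core members HC had 1 of 6 higher and 3 lower than CC, while HHC had 4 of 8 higher than CCC and 0 lower, with a median of 0.74. Counts in core members here stand beside those over all genes tested in core members. These were 188 higher and 162 lower of 3181 for HC with CC, and 120 and 63 of 2709 for HHC with CCC. Fatty acid genes were lower in 5 of 18 in HC and in 3 of 18 in HHC, with 0 higher. In core members 7 of 14 and 3 of 12 were lower, again with 0 higher. Adipocyte markers were lower in 10 of 15 in HC (median -1.40) and in 8 of 15 in HHC (median -1.20), and in core members in 10 of 15 and 3 of 10, with 0 higher, and their part in the fatty acid counts was not tested.

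Renewed against first HFD, compared within a sequencing set at 1 age, gave mostly higher genes. In HCH against CCH 779 of 7972 genes were at least 2-fold higher (9.77%) and 120 lower (1.51%). Higher genes were higher in the other nuclei too in 481 of 779 (61.7%, beside 7.81% of all tested, and 77.3% of those higher there). Gpihbp1 stood at 130.0 CPM in CCH and 415 in HCH, a log2 ratio of 1.68 (1.44 to 1.92). Fabp4 stood at 1989.5 and 5962 CPM and Lpl, the lipase itself, at 788 and 1668. Of the fatty acid genes 4 of 18 were higher (Fabp4, Fabp5, Gpihbp1, Lpl) and 0 lower, and of the capillary markers 2 of 10 (Gpihbp1, Timp4). Other nuclei had 626 CPM of Lpl in CCH and 1366 in HCH. Capillary-like nuclei were 43.2% of core members in HCH and 28.4% in CCH, venous-like nuclei 25.4% and 42.2%, and cluster 1 held 14.6% and 8.65% of all members. The part of this make-up in the result was not tested, and within capillary-like nuclei the log2 ratios were 0.76 for Gpihbp1 and 0.68 for Fabp4. Ly6c1 stood at 127 CPM in CCH and 407 in HCH (log2 ratio 1.69, 1.44 to 1.93), and Insr at 603 and 341 (log2 ratio -0.82, -0.99 to -0.66). Endothelial identity genes were close, with 1 of 25 higher (Icam2), 0 lower and a median of -0.03.

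The genes with the largest ratios that also stood 2 times above the other nuclei were Wfdc21, Sncg, Atp5j, Rpl27 and Smdt1 among 66 higher ones. HCH set this filter for higher genes and CCH for lower ones, and 940 tested genes passed it. These counts are therefore a description. With core members alone the rule named other genes, Gm44079, Gm12158, 4930517O19Rik, Gm49267 and Ly6c1 among 47. Sncg, gamma-synuclein, stood at 11 CPM in CCH and 69 in HCH, and at 2.17 in C, 89.2 in CC and 103 in CCC. Atp5j, Rpl27 and Smdt1 encode a subunit of ATP synthase, a ribosomal protein and a part of the mitochondrial calcium uniporter, whose short spliced mRNAs are also found outside the nucleus. Rpl27 stood at 22.7 CPM in CCH and 121 in HCH, and at 17.4 in C and 182 in CCC. Genes with symbols of Rpl or Rps and a digit, mainly ribosomal protein genes, took 0.480% of the UMIs of core members in CCH and 1.36% in HCH. In other nuclei they took 0.379% and 1.09%. Among the 39 lower ones the largest ratios were those of 1700020G17Rik, Nrg3, 4930500H12Rik, Nexmif and Adarb2. Core members gave Nexmif and Adarb2 again, beside Csmd1, Sntg2 and Kcnn3, among 21. Nrg3 had 61 UMIs in members of CCH and 0 in HCH. Adarb2 stood at 179.6 CPM in CCH and 43.3 in HCH, and leads venous-like cluster 0, which held 77 members of CCH and 56 of HCH.

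Lysosome genes were higher in 14 of 19 in HCH than in CCH (median 1.80), macrophage markers in 9 of 15 (median 1.36) and progenitor markers in 7 of 12 (median 1.28). Adhesion genes were higher in 4 of 13 (Icam2, Ccl2, Cxcl9, Cxcl12) and antigen presentation genes in 6 of 14 (median 0.74). H2-D1 stood at 266 CPM in CCH and 658 in HCH in members, and at 134 and 404 in other nuclei. The counts of this paragraph stand beside 9.77% higher and 1.51% lower over all genes tested. Of the 33 HFD genes without an opposite partner, 10 were at least 2-fold higher in HCH than in CCH, 0 lower, and 28 above 0 (median 0.69, and 0.65 for the same genes in other nuclei). Of the 25 with a partner, 5 were higher, 0 lower and 25 above 0 (median 0.79, and 0.60 in other nuclei). H and HH set the filter for these genes, so their counts are a description. Mgp stood at 476 CPM in CCH and 846 in HCH, a log2 ratio of 0.83 (0.69 to 0.97).

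Genes of the lists and the named genes were also compared within vessel classes, where those described here were chosen after their values were seen. Arterial-like nuclei numbered 223 in C (clusters 3 and 5 with 114 and 109), 85 in H (44 and 41) and 118 in HH (43 and 75). Capillary-like nuclei numbered 275, 115 and 100, and venous-like nuclei 359, 103 and 140. H and HH are both set against C here, so their ratios share that library. Mgp was higher in H and HH than in C in all 3 classes, from 731.5 CPM in arterial-like nuclei of C to 4075 in H and 6741 in HH, with log2 ratios of 2.48 and 3.20. The ratios were 2.63 and 3.71 in capillary-like and 2.40 and 3.02 in venous-like nuclei. S1pr1 had ratios of 1.02 to 1.33 over both libraries and all classes, and H2-D1 of 1.77 to 2.37. Insr was lower in capillary-like (-0.94 and -1.23) and venous-like nuclei (-0.59 and -0.93), and in arterial-like nuclei of H its interval included 0 (-0.74 to 0.13).

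Vcam1, Igfbp7 and Bmp6 differed in direction between classes. Vcam1, an adhesion molecule for leukocytes, stood at 176.1 CPM in arterial-like nuclei of C, 399 in H and 515 in HH, with log2 ratios of 1.18 (0.67 to 1.68) and 1.55 (1.12 to 1.97). In venous-like nuclei it stood at 500.3 CPM in C, 328 in H and 237 in HH, with ratios of -0.61 (-1.04 to -0.20) and -1.08 (-1.53 to -0.65). Over all members it was near equal in C (233 CPM), H (219 CPM) and HH (258 CPM), and other nuclei had 28.9, 53.3 and 90.2 CPM. Igfbp7, a secreted protein that binds insulin-like growth factors, was higher in arterial-like nuclei of H and HH (1.61 and 1.22, from 32 UMIs in C), higher in capillary-like nuclei (0.79 and 0.77) and lower in venous-like nuclei (-0.43 and -1.29).

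Bmp6, a ligand of the BMP receptors, was lower in capillary-like nuclei of H and HH than of C (-0.93 and -0.55) and higher in arterial-like (0.62 and 0.67) and venous-like nuclei (0.40 and 0.89). In HCH against CCH Bmp6 was lower in all 3 classes, with -0.81 in arterial-like, -0.32 in venous-like and -0.36 in capillary-like nuclei. Most venous-like nuclei of CCH lay in cluster 6 (101 of 178) and most of HCH in cluster 0 (56 of 99). Cd36 in the same comparison was higher by 1.65 in arterial-like and 1.50 in venous-like nuclei and by 0.27 in capillary-like nuclei, where its level was 6359 CPM in CCH and 7692 in HCH. The differences between classes were not tested, since each class has 1 value per library.

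**Figure D5:**
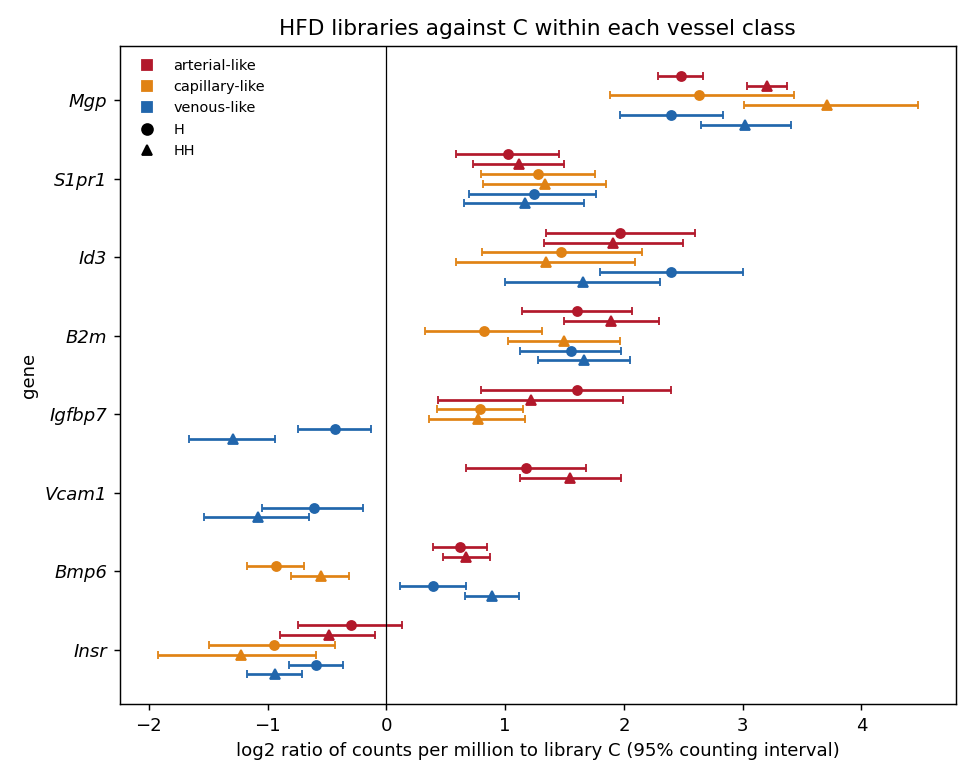
Log2 ratio of CPM in H (circles) and HH (triangles) to C within arterial-like, capillary-like and venous-like nuclei for 8 genes, with 95% counting intervals and a line at 0. Mgp, S1pr1, Id3 and B2m lie above 0 in every class, Insr lies at or below it, and Vcam1, Igfbp7 and Bmp6 lie on both sides.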

How the data were processed

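The deposited files hold counts: UMIs per gene and barcode, 1 matrix per library, which the authors made from 10x Genomics 3′ v3.1 libraries of frozen tissue with Cell Ranger 6.1.2 on mm10, intronic reads included. The study's methods give Seurat 4.1.0 and a doublet caller for later steps, which are not in the matrices. They also give SoupX as an estimate of RNA from outside the nuclei, by which none of the mouse samples needed correcting. Per the labels each library is 1 pool of 5 mice, and each matrix lists 32285 genes, of which 32235 matched GENCODE vM21 for coordinates and gene type.

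Members and gene lists were chosen with earlier results of these data known. Nuclei with 500 to 3000 genes and at most 40000 UMIs were kept, as in the study's methods. Called doublets (Scrublet in scanpy 1.11.5, Python 3.11.15, expected rate 0.8% per 1000 nuclei, with the highest scores taken at that rate in 4 libraries where the automatic threshold did not work) were kept in the main values and removed in an alternative. UMIs were summed over members per library and given as CPM of all summed UMIs without mitochondrial genes and Malat1. Mitochondrial UMIs were 0.750% (C) to 3.46% (CCC) of the members' UMIs. Ratios of 2 libraries carry exact conditional 95% intervals, shares Clopper-Pearson intervals and levels Poisson intervals. In the ratios themselves any count below 3 was set to 3. Intervals of share differences combine those of both shares. Genes at least 2-fold apart with 50 UMIs over both libraries were counted. Diet states were tested with the quasi-likelihood test of edgeR 4.0.16 (R 4.3.3) on summed counts, at an adjusted p of 0.05, with DESeq2 1.42.0 as an alternative. The labels say nothing of separate cultures or cages, and p-values measure the spread between 7 pooled libraries. Members were clustered by Leiden (igraph 0.11.9, resolution 0.5) on 1500 variable genes and 20 principal components, and clusters were named from marker lists. A marker counted as detected in a cluster when it was found in at least 10% of its nuclei and stood 2-fold above the other members. All scripts of a test were tested on simulated data.

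The genes named were those at least 2-fold apart in the same direction in H with C and HH with CC, and in that direction in HH with C, with at least 50 UMIs in each pair and a level in every library of the higher side at least 2 times that of all other nuclei. They were ranked by the smaller ratio, 10 each way. WL (HC with CC and HHC with CCC) and renewed HFD (HCH with CCH) were named by the same rule, 5 each way, together with the edgeR calls (all if 20 or fewer, otherwise the 10 of lowest p) and the members of the gene lists. Genes of the member rule, mitochondrial genes and Malat1 were not named, apart from Adgre1 among the edgeR calls of lowest p. Genes named beyond these ranks were chosen after their values were seen (Clec14a, Rundc3b, Gm15581 and the genes given by vessel class among them). Clec14a, Rundc3b and Gm15581 passed the HFD rule but ranked below the first 10. Alternatives changed the number of endothelial genes asked for, the limits, doublets, filter, tool, normalization, sequencing set and libraries. Core members, the fit without CC and CCC and the fit paired by age were added after the data were examined.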

Additional observations from a re-analysis of the deposited data

Results flagged for a closer look

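Of 274 genes compared within at least 2 vessel classes, 113 (41.2%) had intervals off 0 the same way in 2 or more classes and none the other way. Only 3 (1.09%) had intervals above 0 in one class and below 0 in another for both H and HH against C, and none of the differences between classes was tested. Vcam1 had log2 ratios of 1.18 (H) and 1.55 (HH) in arterial-like and -0.61 and -1.08 in venous-like nuclei. Igfbp7 had 1.61 and 1.22 in arterial-like, 0.79 and 0.77 in capillary-like and -0.43 and -1.29 in venous-like nuclei. Bmp6 had 0.62 and 0.67 in arterial-like, 0.40 and 0.89 in venous-like and -0.93 and -0.55 in capillary-like nuclei. Both ratios of a pair share library C.

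The smooth muscle genes Acta2 and Myh11 and Rgs6, a gene of the epithelial marker list, were at least 2-fold apart in opposite directions after the shorter and the longer HFD. This difference was not tested either. Acta2 had a log2 ratio of 1.34 in HC against CC and -1.71 in HHC against CCC, Myh11 of 2.95 and -1.70, and Rgs6 of 2.09 and -1.67. Acta2 and Myh11 are among the leading genes of the mixed cluster 1, which held 81 members in CC (28.2%), 118 in HC (31.8%), 248 in CCC (61.8%) and 87 in HHC (29.6%). The other nuclei moved the same way. Mural markers summed there to 274 CPM in CC and 1119 in HC, and to 395 in CCC and 194 in HHC. Epithelial markers summed to 219 and 701 CPM, and to 309 and 104. The part of these other cells in the ratios was not tested.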

How the results depend on the processing

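The shares depend on how members are drawn. In percentage points, asking for 5 or more endothelial genes gave -4.77 for H minus C, -0.909 for HH minus CC, 1.36 for HC minus CC and -2.42 for HHC minus CCC. No limit on genes of other cell types gave -6.39, -7.58, -1.62 and -7.48 for the same 4 differences. Core members gave -4.27 for H minus C, 0.248 (reversed) for HH minus CC and -0.364 for HHC minus CCC. Without the upper limit on genes HH minus CC was -4.22 and HCH minus CCH -0.923, and thinned to 1000 UMIs HH minus CC was -1.23 and HC minus CC 1.04. Counts of genes 2-fold apart were 1337 (H with C), 1768 (HH with CC), 761 (HC with CC), 613 (HHC with CCC) and 899 (HCH with CCH). With a minimum of 20 UMIs they were 2492, 3088, 1520, 1413 and 1661, and for genes at 2 times the other nuclei 163, 327, 129, 61 and 105. On fewer nuclei, core members gave 897 (HH with CC), 350 (HC with CC) and 183 (HHC with CCC).

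Under HFD 530 genes were called, against 1675 without the filter on low counts, 882 by DESeq2 and 336 without CC and CCC, and 0 to 1692 when each library was left out in turn. After weight loss 5 were called, against 16 (5 or more endothelial genes), 14 (no upper limit on genes), 8 (doublets removed), 528 (no filter on low counts), 128 (sequencing set as a term), 160 (DESeq2), 39 (core members), 217 (without CC and CCC) and 664 (WL and chow libraries paired by age), and 0 to 122 when each library was left out. The cause of these changes was not tested. At resolution 1 there were 18 clusters in place of 11. Over the genes named from ratios, 240 alternative values kept direction and size and 18 moved, with 0 reversed. Over the genes named from edgeR, taken under each alternative in turn, 348 values kept their call and 106 lost it. No paired analysis was possible because the labels give no replicate numbers to pair by, other than by age for weight loss as given above. HH has no chow library of its age. Among core members depth limits CC, CCC, HC and HHC most (101 to 163 nuclei), and over all members H had the fewest UMIs (626134), so that a gene at 0 there may still be present. Set S075 holds both HFD libraries and 1 of 3 chow libraries, so HFD and set cannot be fully told apart.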

Other observations

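Nuclei with 3 or more of 12 genes of dividing cells (such as Mki67 and Top2a) were 2.26% of members in H (8 nuclei, 95% interval 0.981 to 4.40), and 1.02% in HH. The chow libraries C, CC and CCC had 0.554% (6 nuclei), 2.09% (6 nuclei) and 0.748%, HC and HHC 0.809% and 1.70%, and CCH and HCH 1.50% and 0.722%. The other nuclei had 4.41% in H, 3.04% in HH and 0.795% in C. With 3 to 8 such members per library no order among libraries can be read.

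Long intergenic noncoding RNAs with no coding gene opposite took 9.85% of the members' UMIs in CC, 9.22% in HC, 5.34% in CCC and 2.91% in HHC, the libraries of set S019, against 1.07% to 1.24% in the 5 libraries of set S075. Within set S075, H had 1.07%, HH 1.14% and C 1.24%, so the HFD libraries did not exceed chow there.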
